A study of Sus scrofa with 8 samples.

Results

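A group of 7 genes that neurons switch on or raise after damage to their axons or under stress, ATF3, JUN, SOX11, GAP43, KLF6, DDIT3 and CHAC1, were followed in single nuclei of pig retinas that had received an adeno-associated virus (AAV) or its vehicle. These were 7 of 35683 genes counted. Retinal ganglion cells, the output neurons whose axons form the optic nerve, were taken first, and the other neurons and glia were set beside them. Ganglion cell nuclei were recognised by marker genes and made up 1282 of 350504 nuclei, or 0.366%. Unique molecular identifiers (UMIs, each standing for 1 captured RNA molecule) were summed over the nuclei of a class in a retina, so that a retina gave 1 value for each gene and class, written as CPM, the UMIs of the gene scaled to a total of 1e+06 UMIs in that class and retina.

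The retinas came from female Yucatan minipigs of 3 to 5 months, and were taken 2 or 4 weeks after dosing. All animals were given Vitrase, a hyaluronidase, into the vitreous 2 weeks before dosing, and methylprednisolone from 2 days before dosing and weekly after it, so the vehicle animals carry both agents too. Dosed eyes received 5e11 vector genomes of AAV2.7m8 carrying green fluorescent protein (EGFP) under CAG, a promoter active in most cell types, and control eyes received vehicle, by intravitreal injection. The AAV week 2 group was both eyes of animal 7221 and the vehicle week 2 group both eyes of animal 7222, so week 2 held 1 animal in each arm and was given no p-value. The AAV week 4 group was the left eyes of 7248 and 7249 and the vehicle week 4 group the left eyes of 7250 and 7251. In the study, week 4 animals were taken on 1 of 2 days, the earlier because of inflammation. Which day applies to each of these 4 animals is not given here. The labels give each of these 4 groups a batch of its own, so batch and group cannot be told apart in any comparison between them.

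An injured axon sends a signal back to the nucleus through the kinases DLK and LZK and then JNK, which phosphorylates the transcription factor JUN. ATF3 is a transcription factor that is nearly silent in a resting neuron and is switched on after axon injury, often as a partner of JUN. SOX11 and KLF6 are transcription factors that have been linked to axon regrowth, and GAP43 is a growth cone protein. DDIT3 (CHOP) is the transcription factor at the end of the PERK and ATF4 branch of the stress response, and CHAC1, which degrades glutathione, is one of its targets.

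Ganglion cell nuclei were gated on the markers given here, so the levels of these markers describe the gate and do not test the label. All 13 ganglion cell markers found in the annotation were detected in every retina and summed to 1457 to 1822 CPM. RBPMS, an RNA-binding protein that labels the ganglion cells of many mammals, stood at 1044 CPM in these nuclei and 14.2 CPM in all others, and SLC17A6, their vesicular glutamate transporter, at 322 against 1.10 CPM. The retinas gave 122 to 225 ganglion cell nuclei each, with a median of 16992 to 22314 UMIs per nucleus and 2634017 to 4527084 UMIs in sum. Over all nuclei a retina held 121544835 to 173614051 UMIs. Free RNA, estimated from rod transcripts, made up at most 2.73% to 12.6% of the UMIs of ganglion cell nuclei. Lanes of different retinas shared 18 to 62 barcodes, and lanes of the same retina shared 23 to 65.

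The 7 genes lie on 7 chromosomes of the Sscrofa11.1 assembly in the RefSeq annotation. ATF3 is at chr9:130772259-130829678, JUN at chr6:153686425-153687635, SOX11 at chr3:129797438-129800568, GAP43 at chr13:144364314-144458136, KLF6 at chr10:66488445-66497830, DDIT3 at chr5:22785441-22789867 and CHAC1 at chr1:130360510-130363332. JUN and KLF6 are on the plus strand and the other members on the minus strand. The last bases of DDIT3 overlap those of MARS, which runs on the opposite strand at chr5:22752405-22785509. The 250 bases before the annotated start of ATF3, KLF6, DDIT3 and CHAC1 are printed 5′ to 3′ on the strand of the gene, the first 2 because they changed in these retinas and the last 2 because they hold stress motifs. Capitals mark an AP-1 motif, the site of JUN with its partners, in DDIT3, and a C/EBP-ATF motif, the site of ATF4 with its partners, in CHAC1. They lie at chr9:130829679-130829928 (ATF3), chr10:66488195-66488444 (KLF6), chr5:22789868-22790117 (DDIT3) and chr1:130363333-130363582 (CHAC1).
ATF3: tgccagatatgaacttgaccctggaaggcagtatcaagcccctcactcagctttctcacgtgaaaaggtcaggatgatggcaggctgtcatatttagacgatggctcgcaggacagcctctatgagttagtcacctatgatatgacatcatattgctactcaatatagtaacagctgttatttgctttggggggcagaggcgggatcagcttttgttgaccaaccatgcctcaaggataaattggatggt
KLF6: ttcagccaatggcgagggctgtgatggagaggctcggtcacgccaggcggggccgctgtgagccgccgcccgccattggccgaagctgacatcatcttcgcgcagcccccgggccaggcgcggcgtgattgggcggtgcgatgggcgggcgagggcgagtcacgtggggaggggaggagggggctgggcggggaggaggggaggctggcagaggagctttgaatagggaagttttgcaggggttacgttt
DDIT3: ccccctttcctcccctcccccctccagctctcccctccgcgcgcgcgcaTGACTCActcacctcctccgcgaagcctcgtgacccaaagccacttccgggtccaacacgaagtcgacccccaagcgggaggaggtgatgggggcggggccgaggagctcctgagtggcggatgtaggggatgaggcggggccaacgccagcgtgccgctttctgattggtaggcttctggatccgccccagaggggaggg
CHAC1: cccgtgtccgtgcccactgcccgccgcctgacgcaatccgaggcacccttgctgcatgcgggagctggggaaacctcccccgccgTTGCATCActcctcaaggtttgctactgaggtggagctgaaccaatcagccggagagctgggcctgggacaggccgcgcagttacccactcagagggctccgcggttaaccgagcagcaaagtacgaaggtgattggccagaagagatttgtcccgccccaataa

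A set of 6 motifs was searched on both strands of the 250 bases before all 20651 annotated starts. AP-1 (TGANTCA) occurred in 5.48% of them, C/EBP-ATF (TGATGNAA) in 2.6%, the full cAMP response element (TGACGTCA) in 1.63% and its first pentamer (TGACG), which the full element contains, in 19.2%. GAS (TTCNNNGAA), the site of STAT factors, occurred in 6.38%, and the TATA box (TATAAA) in 10.4%. Among the members, DDIT3 held AP-1, CHAC1 held C/EBP-ATF and the pentamer, and GAP43 held GAS. None of the 6 motifs occurred in these windows of ATF3, JUN, SOX11 or KLF6, which says only that the letters are not there.

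In ganglion cells at week 4, ATF3 was the member that changed with AAV. It gave 32 and 33 UMIs in the AAV retinas, or 10.8 and 12.1 CPM, against 1 and 0 UMIs in the vehicle retinas, or 0.380 and 0 CPM. The groups did not overlap, and both AAV retinas were far above all 6 others, where week 2 gave 1 and 4 UMIs with AAV and 1 and 2 with vehicle. The mean was 11.5 ± 0.886 CPM (SD, n = 2) with AAV and 0.190 ± 0.269 CPM (SD, n = 2) with vehicle. The fitted log2 fold change was 5.77 ± 0.709 (SE), or 54.6-fold (edgeR's quasi-likelihood test, Benjamini-Hochberg adjusted p = 0.000157). The ratio of the summed counts, 65 UMIs against 1, was 65.3-fold with a 95% counting interval of 11.3 to 2618. Over all 13486 genes tested in ganglion cells, 3.05% were called, with 2.14% called higher and 0.912% lower. Without 7251 the fitted log2 value was 4.81. Without 7250 the vehicle group is 1 retina with 0 UMIs, so its fitted value of 8.09 is set by the prior count and gives no size. The exact permutation test of 2 against 2 retinas cannot go below p = 0.333, which ATF3 reached.

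The ATF3 signal lay in few nuclei. A UMI of ATF3 was found in 9 of 132 ganglion cell nuclei of 7248 (6.82%, exact 95% interval 3.17% to 12.6%) and in 11 of 122 of 7249 (9.02%, 4.59% to 15.6%). In the vehicle retinas the share was 0.769% in 7250 and 0 of 174 nuclei in 7251, which allows up to 2.10% by the exact interval. At week 2 it was 0.516% and 2.72% with AAV, and 0.633% and 0.889% with vehicle. Both week 4 AAV retinas were above every other retina. Nuclei with fewer than 10000 UMIs were then left out and each remaining nucleus was thinned to 10000 UMIs. At week 4 this left out 13 and 7 nuclei of the AAV retinas and 17 and 39 of the vehicle retinas. The shares were 5.88% and 6.96% in the AAV retinas of week 4 and 0 in the other 6 retinas. These intervals cover counting error only. Rods had shares of 0.118% and 0.126% in the same AAV retinas, at a median of 1940 and 2198 UMIs.

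Within the 20 nuclei that held ATF3, the UMIs were unevenly spread. The highest nucleus held 10 UMIs in 7248 and 8 in 7249, while 3 and 4 nuclei held a single one. The 4 nuclei of 7248 and 5 of 7249 that held at least 3 UMIs carried 25 UMIs in each retina. In the other retinas every positive nucleus held exactly 1 UMI.

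**Figure D1:**
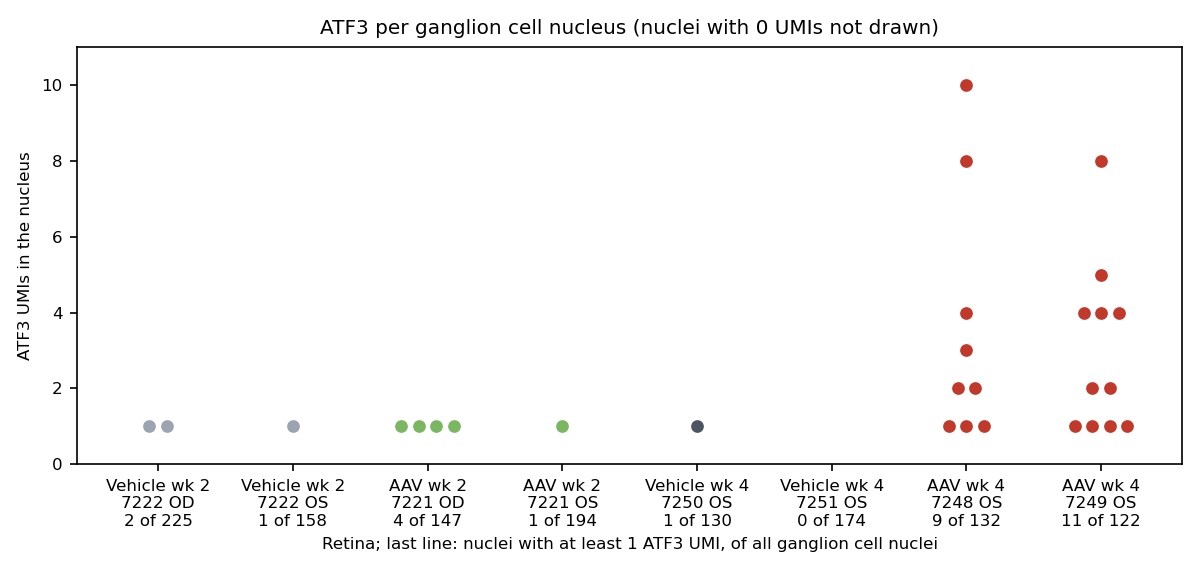
ATF3 UMIs in single ganglion cell nuclei with at least 1, by retina, with 1 point per nucleus and the number of UMIs on the y axis. The 9 and 11 positive nuclei of the week 4 AAV retinas reach 10 and 8 UMIs, and those of all other retinas stay at 1.

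JUN and DDIT3 were also higher in both AAV retinas at week 4 but missed the adjusted threshold. JUN, the target of JNK, gave 18 and 11 UMIs (6.10 and 4.03 CPM) with AAV and 4 and 9 UMIs (1.52 and 2.93 CPM) with vehicle. The groups did not overlap, and the log2 fold change was 1.22 ± 0.527 (SE, adjusted p = 0.279, unadjusted p = 0.0354, edgeR). DDIT3 gave 55 and 64 UMIs (18.6 and 23.5 CPM) with AAV and 38 and 38 UMIs (14.4 and 12.4 CPM) with vehicle. Again both AAV retinas stood above both vehicle retinas, by a log2 value of 0.72 ± 0.257 (SE, adjusted p = 0.176, unadjusted p = 0.014, edgeR). A UMI of DDIT3 was found in 31.8% and 33.6% of ganglion cell nuclei with AAV and in 22.3% and 20.7% with vehicle. These shares depend on depth. After thinning to 10000 UMIs they were 16.0% and 20% against 13.3% and 11.9%. After thinning to 5000 UMIs they were 8.46% and 9.02% against 8.80% and 8.13%, and the groups overlapped. A UMI of JUN was found in 9.85% and 8.20% of nuclei with AAV and in 3.08% and 5.17% with vehicle. After thinning to 10000 UMIs the JUN shares were 4.20% and 3.48% against 2.655% and 4.44%, which overlap. After thinning to 5000 UMIs they were 1.54% and 4.10% against 0 and 1.25%, which do not.

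GAP43 was by far the most counted member in ganglion cells and moved little. It gave 375 and 333 UMIs (127 and 122 CPM) with AAV and 287 and 337 UMIs (109 and 110 CPM) with vehicle at week 4. The groups did not overlap, but the log2 difference was only 0.25 ± 0.124 (SE, adjusted p = 0.353, edgeR). At least 65.5% of ganglion cell nuclei held a GAP43 UMI in every retina, and the highest share was 81.0%.

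KLF6 overlapped between the groups. It gave 17 and 27 UMIs (5.76 and 9.90 CPM) with AAV and 13 and 21 UMIs (4.94 and 6.84 CPM) with vehicle, a log2 difference of 0.45 ± 0.403 (SE, adjusted p = 0.655, edgeR). SOX11 and CHAC1 had too few UMIs to enter the test. SOX11 gave 3 and 2 UMIs with AAV and 1 and 4 with vehicle, and CHAC1 gave 7 and 10 with AAV and 8 and 9 with vehicle. Both pairs of groups overlapped, so no difference in either gene was detectable at this depth.

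In all, 1 of the 5 tested members was called in ganglion cells. Of the 5, 4 did not overlap between the groups, all 4 higher with AAV. Among all tested genes 17.6% did not overlap and were higher, and 46.5% did not overlap in either direction. ATF3 and JUN passed the filter on low counts only through the AAV retinas. SOX11 and CHAC1, which overlapped, did not pass it. The count of 4 is thus a description, and the members were not tested as a group. Some other measures moved with treatment in the same nuclei. The summed rod markers were 185 and 271 CPM with AAV and 332 and 355 with vehicle, and the summed endothelial markers 25.4 and 22 against 46.3 and 39.4. Lymphocyte markers were 55.6 and 58.3 CPM against 31.1 and 33.6, and microglial markers 46.8 and 33.7 against 29.2 and 32.6. Their part in the differences was not tested.

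**Figure D2:**
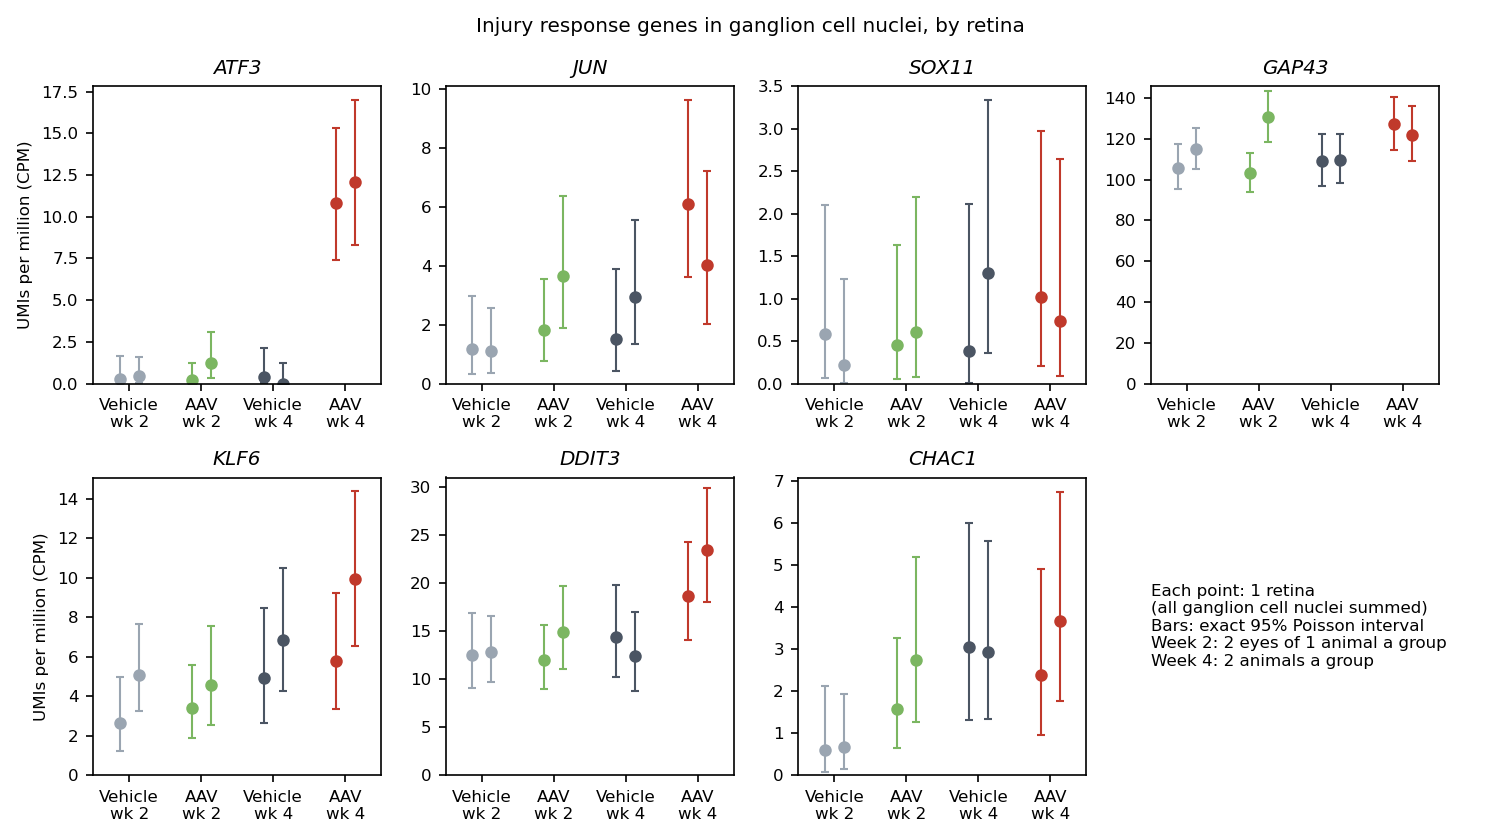
CPM of the 7 members in ganglion cell nuclei, 1 panel per gene, with 1 point per retina in each of the 4 groups and bars for the exact 95% Poisson interval of the count. ATF3 reaches 10.8 and 12.1 CPM in the week 4 AAV retinas and stays at or below 1.22 in the others, while GAP43 lies between 103 and 131 in all 8.

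At week 2 the counting interval of the ratio between the 2 animals held 0 on the log2 scale for 6 of the 7 members in ganglion cells. ATF3 gave 5 UMIs over both eyes of the AAV animal and 3 over both eyes of the vehicle animal, a log2 ratio of 0.78 with a counting interval of -1.58 to 3.47. JUN gave 20 against 9 UMIs, or a log2 ratio of 1.20 with an interval of -0.00451 to 2.51 that just reaches 0. CHAC1 was the 1 member whose interval excluded 0, with 16 against 5 UMIs, 2.07 against 0.629 CPM and a ratio of 3.30 (1.15 to 11.5). By eye, CHAC1 gave 7 and 9 UMIs with AAV and 2 and 3 with vehicle, and the right eyes alone gave a log2 ratio of 2.05 (0.0442 to 4.57) while the left eyes alone did not exclude 0. The intervals of SOX11 (-2.11 to 3.23), GAP43 (-0.0893 to 0.183), KLF6 (-0.818 to 0.715) and DDIT3 (-0.354 to 0.469) all held 0. Of the 13486 genes tested in ganglion cells at week 4, 29.2% had an interval that excluded 0 at week 2, and 19.2% were higher. CHAC1 and SOX11 were not among these genes, and none of the 5 members that were had such an interval.

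The 20 ATF3-positive ganglion cell nuclei of week 4 were then set beside the 234 other ganglion cell nuclei of the same AAV retinas. They were picked by ATF3 itself and in 1 retina were the deeper nuclei, so the values are a description with no test. The median depth was 25813 UMIs in the positive and 20971 in the other nuclei of 7248, and 19688 against 21494 in 7249. JUN stood at 18.8 CPM in the positive nuclei and 3.85 in the others (9 against 20 UMIs), and was higher in both retinas (19.6 against 4.82 CPM, and 17.8 against 2.80). DDIT3 was at 56.4 against 17.7 CPM, with 27.5 against 17.8 in 7248 and 89.2 against 17.6 in 7249. CHAC1 was at 18.8 against 1.54 CPM, and 9 of its 17 UMIs were in the positive nuclei. GAP43 (148 against 123 CPM) and KLF6 (10.4 against 7.50) lay closer together. The summed ganglion cell markers were 1092 CPM in the positive and 1786 CPM in the other nuclei, with RBPMS at 635 against 1129. The markers did not all go the same way. SLC17A6 (253 against 375), NEFL, SNCG and POU4F3 were lower in the positive nuclei too. OPN4 (12.5 against 1.54), POU4F2 (14.6 against 9.62), TBR1, POU4F1 and EOMES were higher there, each on at most 7 UMIs in the positive nuclei. Microglial markers summed to 58.5 against 38.9 CPM and oligodendrocyte markers to 68.9 against 28.9 CPM, and their part in the other values was not tested.

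Among the other gene lists, the integrated stress response, in which the kinases PERK, GCN2, PKR and HRI slow translation and raise ATF4, had the highest median fold of the lists in the ATF3-positive nuclei. Of its 23 genes with at least 10 UMIs, 18 were higher in both retinas and 0 were lower in both, with a median fold of 3.62. The list summed to 1433 against 748 CPM in 7248 and to 1726 against 786 CPM in 7249. Of all 15703 genes with as many UMIs, 24.2% were higher in both and 34.1% lower in both, and the median fold was 0.952. SESN2, a stress-induced sestrin, was at 106.5 against 6.54 CPM. TRIB3, a pseudokinase induced by ATF4 and CHOP, was at 52.2 against 3.08 CPM, and ATF5 at 33.4 against 1.54. The unfolded protein response list had 8 of 13 genes higher in both retinas and 1 lower, with a median fold of 2.08, and its chaperone HSPA5 (BiP) stood at 133.6 against 19.8 CPM.

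The regeneration-associated list had 9 of 14 genes higher in both retinas and 2 lower, with a median fold of 1.51. ARG1, an arginase that promotes neurite growth, gave 55 UMIs in 5 of the 20 positive nuclei and 3 UMIs in all others, or 115 against 0.577 CPM. KLF7 was at 443 against 187 CPM and STMN4 at 117 against 36.2 CPM. The DLK-JNK kinases and their partners were split, with 4 of 15 genes higher, 5 lower and a median fold of 0.997. The DLK gene MAP3K12 was at 18.8 against 25.6 CPM. Interferon-stimulated genes had 7 of 13 higher in both retinas and 0 lower, with a median fold of 1.68, and among them MX2 stood at 121 against 14.8 CPM and RSAD2 at 60.6 against 6.16. NGFR, a neurotrophin receptor named here after its values were seen, gave 28 UMIs in the positive nuclei and 1 in the others.

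**Figure D3:**
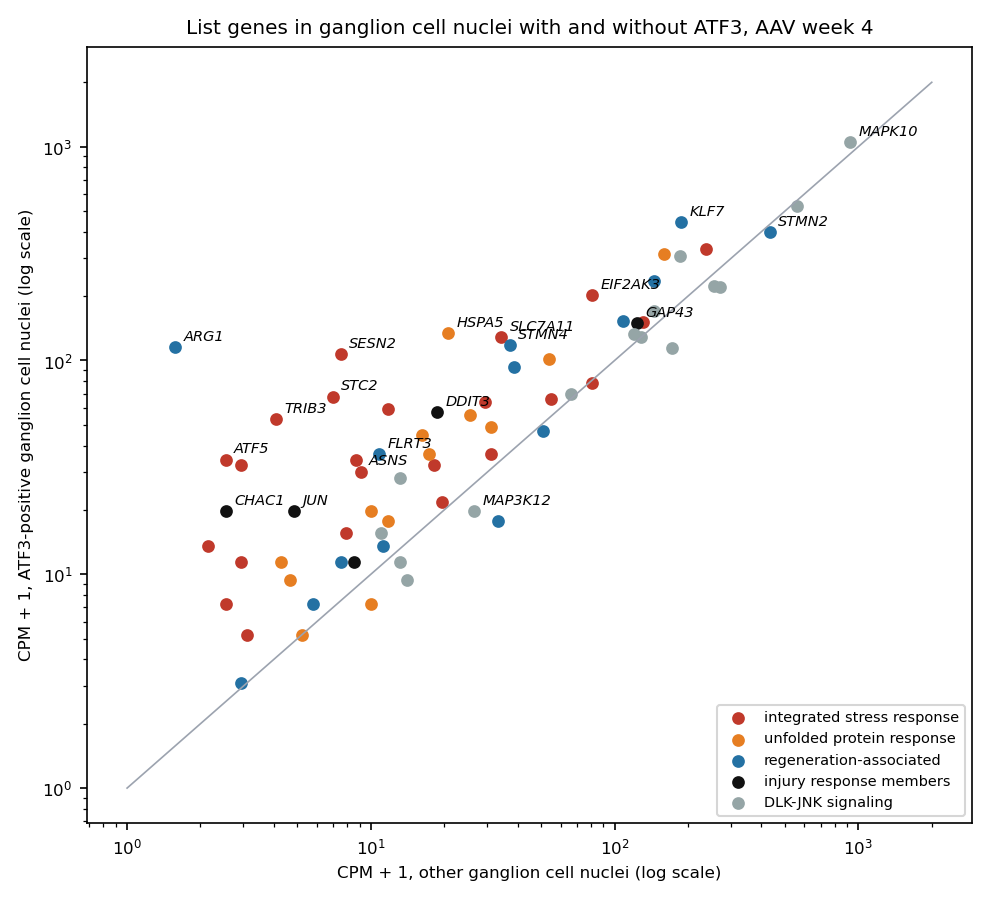
CPM + 1 of list genes with at least 10 UMIs in ATF3-positive (y axis) against other ganglion cell nuclei (x axis) of both AAV retinas of week 4, summed, on log axes, with 1 point per gene coloured by list and a line of equality. ARG1 lies farthest above the line (115 against 0.577 CPM), with SESN2, TRIB3 and ATF5 of the integrated stress response above it as well, while the DLK-JNK genes lie along it.

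Vector transcript was compared by the same split, with no test. An EGFP UMI was present in 6 of 9 ATF3-positive and 52 of 123 other nuclei of 7248, and in 8 of 11 and 57 of 111 of 7249. The level of EGFP was 600.7 CPM in the positive and 73.5 CPM in the other nuclei of 7248, and 370.2 against 99.9 CPM in 7249. It was thus higher in the positive nuclei of both, but rested on few of them. Single positive nuclei held 61, 40 and 39 of the 153 EGFP UMIs in 7248, and 28, 22 and 18 of the 83 in 7249. Split by EGFP, the ganglion cell nuclei of 7248 had 16.3 CPM of ATF3 with EGFP and 4.95 CPM without, and those of 7249 had 14.8 and 8.51 CPM. At week 2 the same values were 0.337 and 0 CPM in the left eye of 7221, and 1.08 and 1.99 in the right. Nuclei with no EGFP UMI held 7 of the 32 ATF3 UMIs in 7248 and 10 of the 33 in 7249. The EGFP-positive nuclei were deeper in both retinas, with a mean of 26490 against 19100 UMIs in 7248 and 23890 against 20610 in 7249. The part of depth in these values was not tested.

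In Müller glia, the radial glia of the retina, 3 of 5 tested members were called at week 4 and all 3 rose. There 19.7% of all genes were called, with 9.81% higher and 9.94% lower. ATF3 and KLF6 passed the filter on low counts only through the AAV retinas, so the count of 3 is a description. ATF3 gave 66 and 21 UMIs (9.48 and 8.12 CPM) with AAV and 4 and 1 UMIs (0.516 and 0.144 CPM) with vehicle. The 2 groups were far apart, by a log2 value of 4.62 ± 0.488 (SE), or 24.6-fold (adjusted p = 0.000767, edgeR). JUN gave 30.9 and 24.0 CPM with AAV and 10.95 and 4.45 CPM with vehicle, a log2 difference of 1.82 ± 0.357 (SE, adjusted p = 0.0113, edgeR). KLF6 gave 7.33 and 6.19 CPM against 0.773 and 1.15 CPM, a log2 difference of 2.80 ± 0.394 (SE, adjusted p = 0.00291, edgeR). GAP43 and DDIT3 differed by log2 values of 0.05 (adjusted p = 0.875) and 0.13 (adjusted p = 0.755). The JUN call was lost without 7248 (1.63, adjusted p = 0.0554), and the KLF6 call under the stricter gate (2.04, adjusted p = 0.0849), where ATF3 could not be tested.

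The Müller glia of the AAV retinas differed in number and depth. They were 1174 and 434 nuclei with a median of 5739 and 5905 UMIs, against 2840 and 2680 nuclei with 2411 and 2211 UMIs in the vehicle retinas. Free RNA was at most 9.34% and 7.96% with AAV and 19.1% and 23.9% with vehicle. After thinning to 2000 UMIs, ATF3 was present in 1.98% and 1.40% of AAV nuclei and 0.159% and 0 of vehicle nuclei, and KLF6 in 1.38% and 1.17% against 0.211% and 0.192%. JUN was present in 5.43% and 5.14% against 2.59% and 0.962%. All 3 genes kept both AAV retinas above both vehicle retinas.

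Müller glia also held ATF3 at week 2. Both eyes of 7221 gave 23 and 119 UMIs (2.81 and 7.79 CPM) and both eyes of 7222 gave 1 and 1 UMIs (0.0812 and 0.0966 CPM). The summed counts, 142 against 2 UMIs, had a ratio of 68.6 with a counting interval of 18.6 to 571.6, between 1 animal and 1 animal. JUN had a log2 ratio of 1.22 (0.972 to 1.48) and DDIT3 of 0.48 (0.268 to 0.684), while the interval of KLF6 held 0 (0.66, -0.144 to 1.496). In Müller glia 53% of all genes had an interval that excluded 0 at this week. The 50 and 14 ATF3-positive Müller nuclei of week 4 were set beside the ATF3-negative ones in the same way, with no test. Their integrated stress response genes summed to 1446 and 1557 CPM, against 1372 and 1437 in the ATF3-negative Müller nuclei of the same retinas. Immediate early genes summed to 439.7 and 381 against 133 and 162, and ARG1 was at 0. In ganglion cells the immediate early list also summed higher in the ATF3-positive nuclei, at 106 against 53.8 CPM in 7248 and 218.6 against 72.7 in 7249. Much of that sum was the heat shock gene HSPH1. It held 108 of the 145 UMIs of the list in the other nuclei of 7248 and 153 of 182 in those of 7249. In the positive nuclei it held 7 of 27 and 28 of 49.

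**Figure D4:**
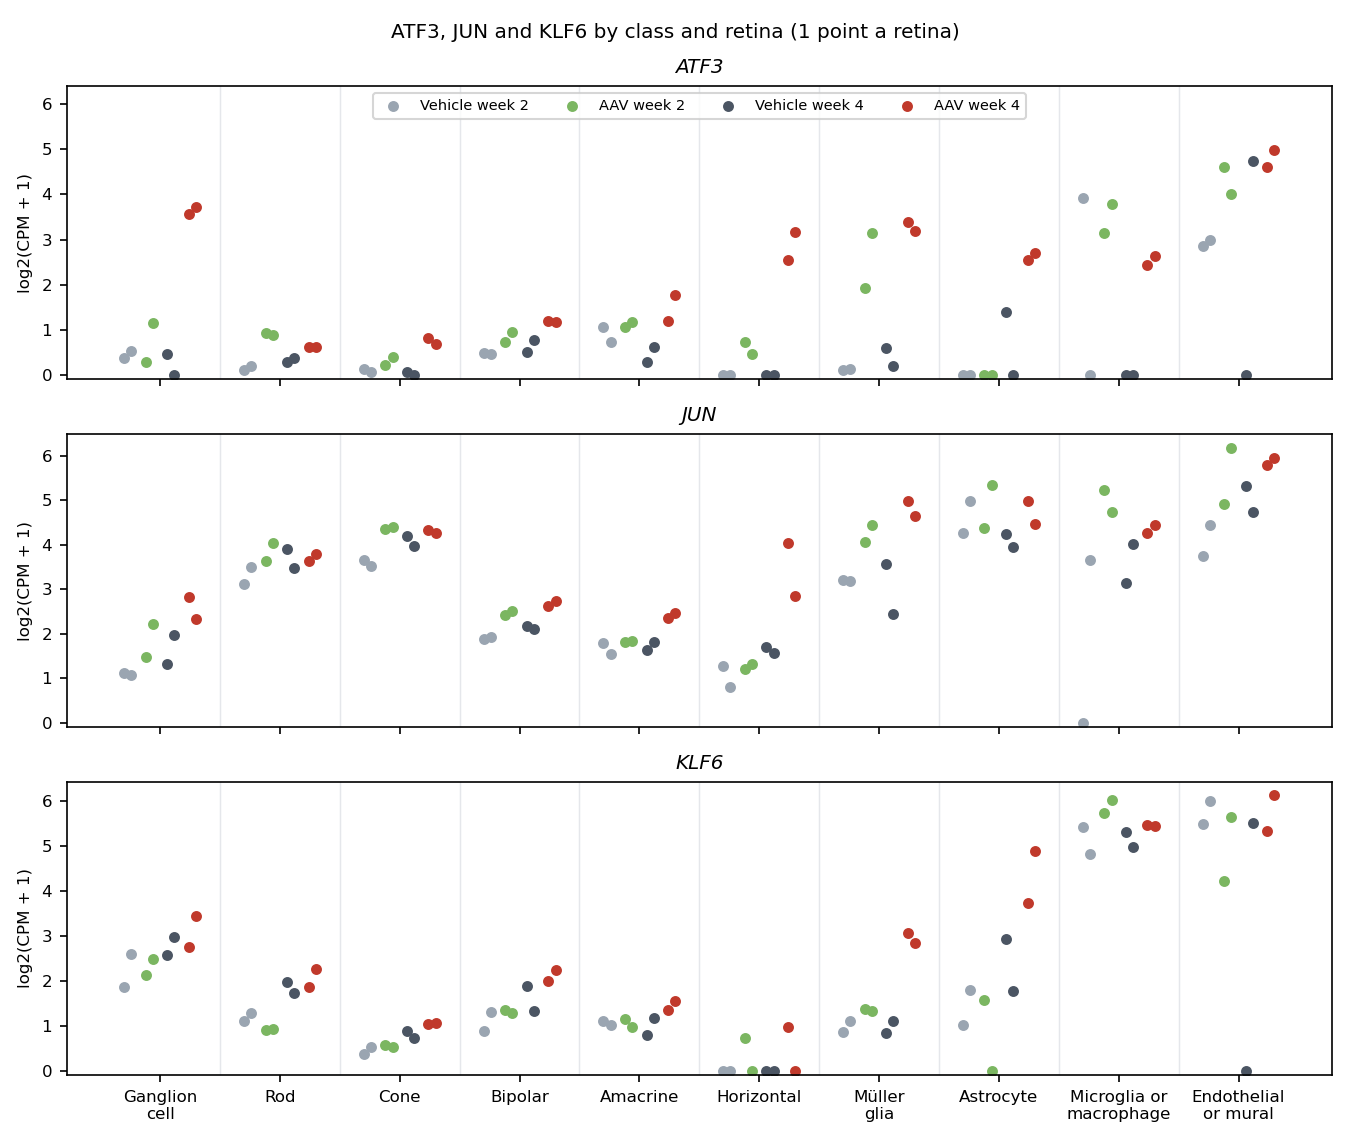
Level of ATF3, JUN and KLF6, 1 panel each, as log2(CPM + 1) in the 10 classes, with 1 point per retina coloured by group. ATF3 in Müller glia reaches 9.48 and 8.12 CPM in the week 4 AAV retinas and 2.81 and 7.79 in the week 2 AAV retinas, against at most 0.516 in the vehicle retinas.

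In astrocytes, which lie with the ganglion cell axons, 1 of 4 tested members was called, and it fell. GAP43 gave 16 and 23 UMIs (13.02 and 25.5 CPM) with AAV and 33 and 40 UMIs (54.2 and 48.5 CPM) with vehicle, a log2 difference of -1.39 ± 0.364 (SE, adjusted p = 0.0347, edgeR). The call rests on few UMIs and was lost with DESeq2 (adjusted p = 0.164), after subtraction of free RNA (0.169) and without 7248 (-0.92, adjusted p = 0.148), 7250 or 7251. Free RNA was at most 16.5% and 7.42% of astrocyte UMIs with AAV and 21.5% and 26.1% with vehicle. At week 2 GAP43 in astrocytes stood at 33.7 and 79.2 CPM with AAV and 92.0 and 71.0 CPM with vehicle, which overlap. The log2 ratio of the summed counts was -0.90 (-1.53 to -0.319), where 20.1% of genes had an interval that excluded 0, but the left eyes gave -1.45 and the right eyes 0.16. KLF6 gave 15 and 26 UMIs against 4 and 2 at week 4, a log2 difference of 2.25 ± 0.685 (SE) that missed the threshold (adjusted p = 0.0622, edgeR). ATF3 gave 6 and 5 UMIs with AAV and 1 and 0 with vehicle, too few to test. Of all genes tested in astrocytes, 11.9% were called, 6.29% higher and 5.56% lower.

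No member was called by edgeR in the other neurons at week 4, and DESeq2 called 1, GAP43 in rods (0.46, adjusted p = 0.0383). Of the 24 pairs tested there, 11 had an unadjusted p under 0.05 by edgeR. The share of all genes at that unadjusted level is not given here, and the shares below are for adjusted calls. Rods gave ATF3 a log2 difference of 1.20 (adjusted p = 0.114) and GAP43 one of 0.47 (adjusted p = 0.0546), where 15.2% of genes were called. Cones gave ATF3 4.34 ± 0.833 (SE, adjusted p = 0.0666), with 13 and 12 UMIs against 1 and 0, where 1.65% of genes were called. Amacrine cells, the inhibitory neurons beside the ganglion cells, gave ATF3 2.19 ± 0.587 (SE, adjusted p = 0.104), with 14 and 20 UMIs against 2 and 6, where 2.11% of genes were called. Bipolar cells, the relay from photoreceptors to ganglion cells, gave ATF3 1.19 (adjusted p = 0.161) and JUN 0.69 (adjusted p = 0.136), where 3.36% of genes were called.

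At week 2, JUN was higher in rods, cones and bipolar cells of the AAV animal, and ATF3 in rods and bipolar cells, beyond counting error. The log2 ratio of JUN was 0.61 in rods (0.439 to 0.774), 0.84 in cones (0.666 to 1.01) and 0.74 in bipolar cells (0.438 to 1.04). ATF3 gave 37 against 8 UMIs in rods, a log2 ratio of 2.91 (1.79 to 4.23), and a log2 ratio of 1.07 (0.293 to 1.90) in bipolar cells. In cones it gave 11 against 3 UMIs, a log2 ratio of 1.70 whose interval held 0 (-0.225 to 4.18). The interval excluded 0 for 50.9% of all genes in rods, 47.9% in cones and 50.9% in bipolar cells, so such an interval is common between these 2 animals.

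Horizontal cells, the lateral inhibitory neurons of the outer retina, gave 5 and 9 ATF3 UMIs with AAV and none in either vehicle retina. Set against a floor of 3 counts over the vehicle group, this was at least 4.11-fold higher. JUN gave 16 and 7 UMIs in the same nuclei against 2 and 2, a ratio of 5.06 with a counting interval of 1.73 to 20.1. Both genes were under the filter of the test. The interval covers counting error and not the spread between animals, and no share of all genes by these measures is given here. DDIT3 was tested, and stood at 20.2 and 27.5 CPM against 10.2 and 5.85 CPM, a log2 difference of 1.52 ± 0.439 (SE, adjusted p = 0.106), where 3.63% of genes were called. In microglia and macrophages no tested member was called, where 4.99% of genes were. Neither an unadjusted p under 0.05 nor a call by DESeq2 was found among their 4 tested members. They numbered 1184 and 739 nuclei in the AAV retinas of week 4 and 59 and 65 in the vehicle retinas. In vascular cells no member had enough UMIs to be tested.

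Over the 10 classes, 42 pairs of member and class could be tested at week 4. Of these, 5 were called, 19 had an unadjusted p under 0.05 and 40 had a log2 difference above 0. In the classes with a tested member, the share of all genes called ran from 1.65% in cones to 19.7% in Müller glia. Müller glia held 3 of the 5 calls, and ATF3 and KLF6 passed the filter there only through the AAV retinas. The median log2 difference over all genes lay between -0.00508 and 0.101 in these classes. Shares of all genes with an unadjusted p under 0.05 or a value above 0 are not given here, so the 19 and the 40 have no background. The pairs share retinas and the members share classes, so they are not independent of each other.

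**Figure D5:**
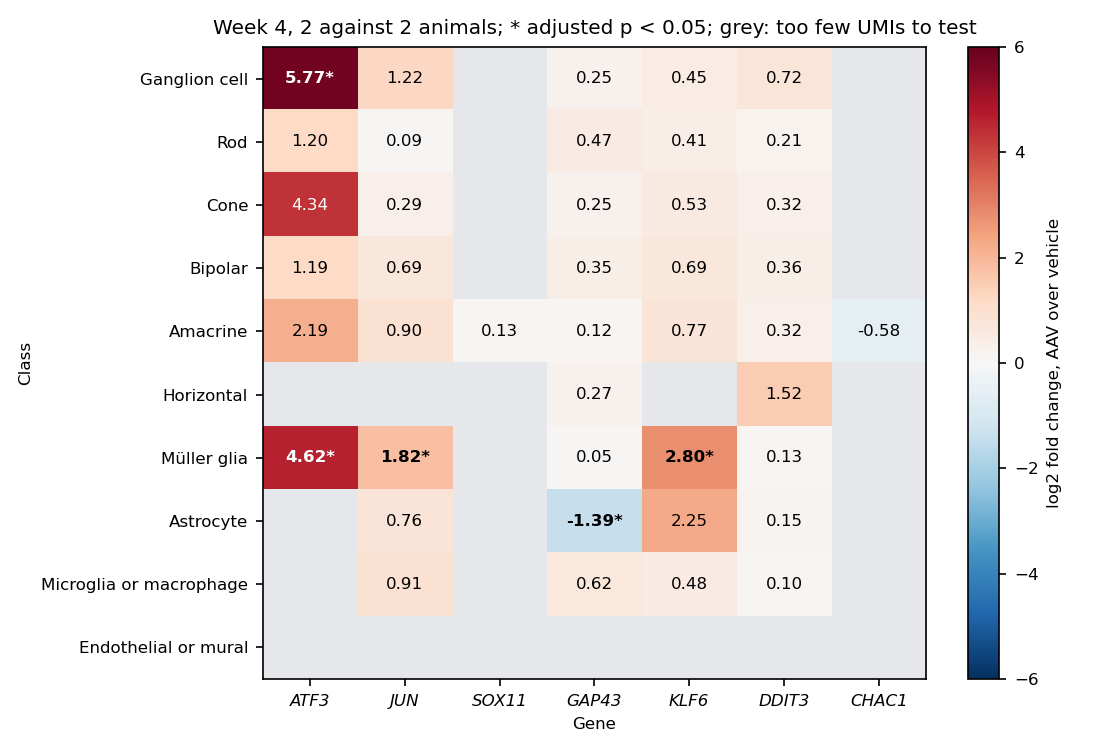
Log2 fold change of AAV against vehicle at week 4 for each member in each class, printed and coloured by its value, with an asterisk on pairs called at an adjusted p under 0.05 and grey cells for untested pairs. The 5 called pairs are ATF3 in ganglion cells (5.77) and in Müller glia (4.62), JUN (1.82) and KLF6 (2.80) in Müller glia and GAP43 in astrocytes (-1.39).

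Whether ganglion cells differed from another class in the effect of AAV was tested on the difference itself, with the retina as a block. The ATF3 effect was larger in ganglion cells than in rods, by a log2 value of 4.89 ± 1.22 (SE, adjusted p = 0.0214, edgeR), where 7.76% of genes differed. It was also larger than in bipolar cells, by 4.85 ± 1.09 (SE, adjusted p = 0.0472), where 0.968% did. In both fits ATF3 passed the filter on low counts only through the AAV retinas, so both differences are descriptions. In the vehicle ganglion cells it had a mean of 0.190 CPM. Against Müller glia the ATF3 difference was 1.17 ± 1.34 (SE, adjusted p = 0.702), and against amacrine cells 3.78 (adjusted p = 0.376), so no difference from these classes was shown. The KLF6 effect was smaller in ganglion cells than in Müller glia, by -2.39 ± 0.598 (SE, adjusted p = 0.035), where 6.56% of genes differed. The GAP43 effect was higher in ganglion cells than in astrocytes, by 1.69 ± 0.352 (SE, adjusted p = 0.00326), where 4.39% did. These were 4 of 51 pairs, and the share of all genes that differed was 1.37% for cones, 0.402% for amacrine cells, 0.936% for horizontal cells, 5.9% for microglia and macrophages and 0.351% for vascular cells, where no member differed. All 4 calls were lost under the stricter gate, where the values were 4.69 (adjusted p = 0.0558), 4.36 (0.115), -1.78 (0.294) and 1.72 (0.644).

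With both weeks in 1 fit and the eyes of a week 2 animal summed, 3 animals stood in each arm, and 3 of 43 pairs were called. ATF3 rose in Müller glia by a log2 value of 5.11 ± 0.447 (SE, adjusted p = 0.000668, edgeR), and JUN by 1.58 ± 0.32 (SE, adjusted p = 0.0342), where 5.25% of genes were called. ATF3 rose in ganglion cells by 3.95 ± 0.749 (SE, adjusted p = 0.0178), where 1.03% were. In the classes with no call the share of all genes called was 0.469% in rods, 0.583% in cones, 0.796% in bipolar cells, 1.29% in amacrine cells, 1.83% in horizontal cells, 2.78% in astrocytes and 6.01% in microglia and macrophages. The ganglion cell call was lost without 7250 (3.59, adjusted p = 0.163) and without 7251 (3.03, adjusted p = 0.2). The JUN call in Müller glia was lost without 7248 (1.41, adjusted p = 0.163), 7249 (1.61, 0.106) or 7250 (1.86, 0.0563) and with left eyes only at week 2 (1.49, 0.0577), and ATF3 in Müller glia stayed called when any 1 animal was left out. The difference between the weeks was then tested. For ATF3 in ganglion cells the week 4 effect exceeded the week 2 effect by a log2 value of 5.20 ± 1.79 (SE, unadjusted p = 0.00919, adjusted p = 0.294), and in Müller glia the difference was -1.23 (adjusted p = 0.574). None of the 46 pairs passed the adjusted threshold by edgeR and 4 had an unadjusted p under 0.05, where 0.212% of genes were called in ganglion cells, 2.62% in Müller glia, 1.76% in rods, 1.18% in astrocytes, 0.397% in microglia and macrophages, 0.0249% in cones, 0.0465% in bipolar cells, 0.0456% in amacrine cells and 0.0285% in horizontal cells. A difference between weeks was thus not shown for any member.

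The wider pathways were read from lists of genes, by counts and medians alone. In ganglion cells at week 4, 0 of 15 tested DLK-JNK genes were called, with a median log2 difference of -0.0244. Over all genes the median was -0.00508 and 3.05% were called. RNA counts do not measure phosphorylation, so whether these kinases were active was not tested. None of the 15 had an unadjusted p under 0.05, and DESeq2 called 0. The immediate early list had 0 of 3 called, 0 at an unadjusted p under 0.05 and 0 by DESeq2. These 3, of 20 listed, were NR4A1 and the heat shock genes HSPH1 and DNAJB1. The others, FOS, JUNB and EGR1 among them, had too few UMIs to test, so the list as a whole was not examined. The unfolded protein response had 0 of 12 called, with a median of 0.17, 4 genes at an unadjusted p under 0.05 and 0 called by DESeq2. The regeneration-associated list had 3 of 13 called higher, 0 lower and a median of 0.45, beside 2.14% of all genes called higher, and DESeq2 called 2 of the 3. These were ARG1 (3.29 ± 0.557 SE, adjusted p = 0.00322), STAT3, the transcription factor of cytokine signaling (1.26 ± 0.154 SE, adjusted p = 0.000158), and IL6ST, the shared receptor of the IL-6 family (0.57 ± 0.146 SE, adjusted p = 0.0488). ARG1 gave 39 and 19 UMIs with AAV and 3 and 3 with vehicle, and the call was lost without 7248 (2.72, adjusted p = 0.0831). IL6ST lost its call with DESeq2 (adjusted p = 0.169) and under the stricter gate (0.55, adjusted p = 0.0815). Under the stricter gate and the gates on alternate markers ARG1 was not tested, and STAT3 stayed called. ARG1, at 1.14 and 0.978 CPM in the vehicle retinas, passed the filter on low counts only through the AAV retinas. It could only come out higher, so the count of 3 is a description.

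The integrated stress response list had 2 of 17 genes called higher in ganglion cells, 0 lower and a median of 0.24, again beside 2.14% of all genes called higher. DESeq2 called EIF2AK2 and not SESN2 (adjusted p = 0.0894). EIF2AK2, the kinase PKR, which is itself induced by interferon, rose by 2.12 (adjusted p = 5.73e-08). SESN2 gave 50 and 35 UMIs with AAV and 7 and 18 with vehicle, a log2 difference of 1.84 ± 0.389 (SE, adjusted p = 0.0163, edgeR). It lost its call under the stricter gate (1.11, adjusted p = 0.276). At 2.66 and 5.87 CPM in the vehicle retinas, SESN2 would not have passed the filter on low counts through them alone. For comparison, 11 of 11 tested interferon-stimulated genes, of 15 listed, rose in the same nuclei, with a median of 5.04. Among them MX2, ISG15, BST2, IFIH1 and DDX60 had 0 UMIs in both vehicle retinas. They passed the filter on low counts only through the AAV retinas and could only come out higher, so this count is a description.

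In Müller glia the counts of the lists stand beside 9.81% of all genes called higher and 9.94% lower. The regeneration-associated list had 6 of 17 genes called higher and 1 lower, with a median of 0.55. CEBPD, a transcription factor of acute responses, rose by 4.79 (adjusted p = 6.19e-05), and the stathmin STMN2 fell by 1.12 on the log2 scale (adjusted p = 0.044). The immediate early list had 6 of 14 higher and 0 lower, with a median of 0.82, including IER3 (4.30, adjusted p = 0.0015) and the JUN partner FOSL1 (2.88, adjusted p = 0.00452). The integrated stress response had 7 of 20 higher and 2 lower, with a median of 0.08. The DLK-JNK list had 3 of 16 higher and 1 lower, where BBC3, a cell death effector, rose by 4.48 (adjusted p = 0.000309) and BCL2L11, another, fell by 0.97 on the log2 scale (adjusted p = 0.0344). CEBPD, IER3, FOSL1 and BBC3 stood at no more than 1.15 CPM in the vehicle retinas of week 4. They passed the filter on low counts only through the AAV retinas and could only come out higher, so these counts are descriptions.

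List genes were called in other neurons too, where no member was, each of those named here with an adjusted p of at most 0.0481 (edgeR). In rods 5 of 19 regeneration-associated genes were called higher and 2 lower, where 6.57% and 8.66% of all genes were. In bipolar cells 4 of 16 were called higher and 0 lower (1.93% and 1.43% of all genes), in amacrine cells 2 of 16 and 0 (1.57% and 0.53%), and in horizontal cells 1 of 10 and 0 (2.43% and 1.19%). CEBPD rose in rods by 3.75, in cones by 2.96, in bipolar cells by 2.12 and in amacrine cells by 2.35 on the log2 scale. Some list genes passed the filter on low counts only through the AAV retinas, so these counts are descriptions. Among them were SOCS3 in rods and CEBPD in cones and amacrine cells. STAT3 rose in bipolar cells by 1.14, in amacrine cells by 1.04 and in horizontal cells by 1.25. NUPR1, a stress-induced chromatin protein of the integrated stress response list, rose in horizontal cells by 2.89. The immediate early genes NR4A1 and NR4A3 fell in bipolar cells, by 1.27 and 1.46 on the log2 scale. In rods 2 of 12 immediate early genes were called higher and 1 lower. FOSL2 rose there by 3.5 and JUNB by 1.76, and EGR1 fell by 1.00. In astrocytes 3 of 10 regeneration-associated genes were called higher and 1 lower, where 6.29% and 5.56% of all genes were. The lower one was STMN2, which fell by 2.66. Of the higher ones, CEBPD and TNFRSF12A passed the filter only through the AAV retinas, and STMN2 passed it only through the vehicle retinas.

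In the vehicle retinas the members were expressed in different classes. Levels are compared only within a gene, as mean ± SD over 3 animals. ATF3 was at 10.7 ± 13.3 CPM in vascular cells, a mean within its spread of 0 that rests on 6 UMIs, and stood at 0.252 ± 0.219 CPM in ganglion cells, at rank 6 among the classes. JUN was highest in vascular cells at 27.1 ± 11.4 CPM and in astrocytes at 18.8 ± 4.67, which do not differ beyond their spread, and was at 1.86 ± 0.949 CPM in ganglion cells. GAP43 was at 227 ± 20.6 CPM in amacrine cells, 110 ± 1.09 in ganglion cells and 94.5 ± 18.3 in horizontal cells, of which the last 2 overlap. Ganglion cells were at rank 3 among the classes for GAP43, and the class at rank 2 is not given here. KLF6 was at 34.5 ± 4.30 CPM in microglia and macrophages and 32.5 ± 28.5 in vascular cells, which do not differ beyond their spread, and at 5.27 ± 1.44 in ganglion cells. CHAC1 was highest in ganglion cells at 2.20 ± 1.36 CPM, next to amacrine cells at 1.61 ± 0.403, and SOX11 in amacrine cells at 0.816 ± 0.176 next to ganglion cells at 0.687 ± 0.534. Neither pair differs beyond its spread. DDIT3 lay between 8.67 and 26.9 CPM over the classes, with 13.2 ± 1.10 in ganglion cells.

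Genes whose level followed a member's over classes and retinas were ranked by Pearson's r of log2(CPM + 1) over 89 sums. For ATF3 the closest were PSMB8 (r = 0.75), PDLIM1 (0.723) and FAS (0.719), and for JUN they were CLIC4 (0.804), CTNNA1 (0.791) and MAPK1IP1L (0.766). SOX11 was followed most closely by NDST4 (0.79), GAP43 by NEXMIF (0.807), KLF6 by RUNX1 (0.864) and CHAC1 by COL12A1 (0.687). The sums share retinas, depth and class, so these are descriptions with no p.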

How the data were processed

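Nuclei of 8 pig retinas (6 animals) were sorted on DAPI and sequenced with the 10x GEM-X 3' v4 kit in 4 lanes per retina. The authors deposited raw UMI counts per gene and barcode, made with Cell Ranger 8.0.0 on Sscrofa11.1 with EGFP added, and the deposited counts were not normalized. Barcodes with at least 500 UMIs that passed a mitochondrial filter (posterior 0.75) were kept, 350504 of 388491. No doublet caller was run. Nuclei were assigned to a class by a score over fixed markers (margin 5 natural-log units, 3 distinct markers, 2 for astrocytes, cap 15 per marker), which placed 259282. The thresholds of this gate were set after the counts were seen. A stricter gate needed a margin of 10 and a ratio of 3 to the second class, and dropped mixed nuclei. Free RNA was estimated as an upper limit from transcripts of other classes.

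UMIs were summed per retina and class. Week 4 was tested with edgeR's quasi-likelihood test (edgeR 4.0.16, R 4.3.3, TMM, filterByExpr, Benjamini-Hochberg over all genes, threshold 0.05), 2 retinas against 2. SE is the log2 value over the root of F. With 2 samples a group the p-values measure the spread between these animals only. Shares of all genes with an unadjusted p under 0.05 are not given, so counts of unadjusted p stand without a background. Both weeks were fitted over 6 animals with week as a term, and again with an interaction. Intervals of counts, shares and ratios were exact at 95%, and a count of 0 was given a floor of 3 counts. The exact permutation test of 2 against 2 cannot go below 0.333. On simulated data of 13410 genes drawn from the ganglion cell sums, 53% of 2-fold and 90% of 4-fold changes were recovered and 1.38% of calls were unchanged genes. In Müller glia (16290 genes) the shares were 47% and 87%, and in astrocytes (9305 genes) 25% and 91%. The simulation used a spread shared by genes of like count and had no batch effect. Its changed genes were drawn at random from all genes past the filter, so these shares are not those of members with few UMIs.

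The named genes were the 7 members, list genes past the threshold at week 4 by size of change (up to 4 a direction in ganglion cells, 2 elsewhere), the 3 genes most like each member in r of log2(CPM + 1), with a pseudocount of 1, over class-by-retina sums of at least 20 nuclei among genes with a mean CPM of at least 5, and the gate markers. The genes most like DDIT3 are not reported here. The genes of the ATF3-positive nuclei were named after their values were seen. The members and lists were chosen with earlier results of these data known. The study compared nuclei, and sums per animal were used here in their place. Alternatives were DESeq2 1.42.0, other scalings and filters, other gates, subtraction of free RNA, thinning and leaving out each animal. The other tools were Python 3.11.15, numpy 2.4.6, pandas 2.3.3, scipy 1.17.1, matplotlib 3.10.9 and limma 3.58.1.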

Additional observations from a re-analysis of the deposited data

Results flagged for a closer look

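Among the members, 4 differences in the week 4 effect of AAV between ganglion cells and another class passed the test of the difference itself (edgeR, retina as a block). The ATF3 effect was larger in ganglion cells than in rods by a log2 value of 4.89 (adjusted p = 0.0214) and larger than in bipolar cells by 4.85 (adjusted p = 0.0472). ATF3 passed the filter on low counts in both fits only through the AAV retinas, so both differences are descriptions. KLF6 differed between ganglion cells and Müller glia by -2.39 (adjusted p = 0.035), and GAP43 between ganglion cells and astrocytes by 1.69 (adjusted p = 0.00326). Each was one of 51 pairs tested, of which 7 had an unadjusted p under 0.05. Under the stricter gate the values were 4.69 (adjusted p = 0.0558), 4.36 (0.115), -1.78 (0.294) and 1.72 (0.644), so none of the 4 calls held there.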

How the results depend on the processing

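No paired analysis was possible because the replicate numbers are only names given in accession order and the groups share no animal. The count of members called in ganglion cells at week 4 stayed at 1 under all 15 alternatives, with ATF3 at 4.81 to 6.09 on the log2 scale, apart from the 8.09 set by the prior count without 7250, and a highest adjusted p of 0.00813 (DESeq2). Where an animal was left out, the spread of its arm of 1 was taken to be that of the others. Depth limits SOX11 and CHAC1, which could not be tested in ganglion cells. The ATF3 share of ganglion cell nuclei, 7.92% in the mean of the week 4 AAV retinas, was 3.56% after thinning to 5000 UMIs. The gates on alternate markers of the ganglion cell list kept ATF3 at 4.96 and 5.25.

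Members called in the other classes numbered 4 and became 10 with no filter on low counts. All genes called in ganglion cells numbered 411, and 186 with DESeq2, 758 with no filter, 257 under the stricter gate, 243 under the gate on the second set of markers and 413 to 621 when an animal was left out (621 without 7249). With library size alone, 257 genes were higher and 214 lower in place of 288 and 123. In Müller glia 3233 genes were called, and 2052 with DESeq2, 1711 under the stricter gate and 1896 to 2787 when an animal was left out (1896 without 7248). Over both weeks the 3 calls became 1 to 5 when an animal was left out, with 1 without 7248, 7249 or 7250, 2 without 7251 and 5 without 7221 or 7222. At week 2 the 1 member of ganglion cells became 0 in left and 2 in right eyes alone. The 4 differences between classes became 0 under the stricter gate. The 5 list calls in ganglion cells became 3 with DESeq2, 8 with no filter, and 2 under the stricter gate and each set of alternate markers. The cause of these changes was not tested.

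Direction turned in 19 results, none of them called. With library size alone JUN in rods was -0.0122 and DDIT3 in microglia -0.0572. Under the stricter gate JUN in rods was -0.0435, DDIT3 in Müller glia -0.18, KLF6 in microglia -0.042, and the ganglion cell difference was -0.31 for ATF3 against cones, -0.14 and -0.12 for GAP43 against horizontal cells and Müller glia, and 0.21 and 0.13 for ATF3 and KLF6 against microglia. With left eyes only, GAP43 in Müller glia over both weeks was -0.0266. When each week 4 animal was left out in turn, the week 4 values ran from -0.12 to 0.34 for JUN in rods, -0.55 to 0.67 for SOX11 in amacrine cells, -0.15 to 0.60 for GAP43 in horizontal cells, -0.0551 to 0.191 for GAP43 and -0.12 to 0.43 for DDIT3 in Müller glia, -0.0572 to 0.443 for DDIT3 in astrocytes and -0.57 to 1.74 for DDIT3 in microglia. The values over both weeks ran from -0.0316 to 0.368 for KLF6 in ganglion cells, -0.213 to 0.15 for KLF6 in rods, -0.0085 to 0.0581 for GAP43 in amacrine cells, -0.128 to 0.256 in horizontal cells and -0.0419 to 0.0856 in Müller glia when each week 4 animal was left out. GAP43 in microglia turned to 0.607 without 7221 and 0.635 without 7222. Of the results on single members and genes, 35 lost a call under at least 1 alternative and 7 gained one.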
